A study of Mus musculus with 14 samples.

Results

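The Cyp2c epoxygenases are microsomal cytochrome P450 enzymes. The results concern 6 of them that were chosen by name, Cyp2c23, Cyp2c29, Cyp2c55, Cyp2c65, Cyp2c66 and Cyp2c68, out of 54532 genes counted in the ileum mucosa. They were selected on the same WT and IKO libraries, so their difference between the genotypes is given as a description without a test. Both groups were male mice homozygous for a floxed NCoR1 allele, aged between 7 and 8 weeks at the start, and RNA was taken after 15 weeks on an HFD with 60% of its energy from fat. The 7 IKO mice also carried Cre under the villin promoter, which is active in intestinal epithelial cells (IECs), and the 7 WT mice did not. NCoR1 is a corepressor that nuclear receptors recruit in the absence of ligand. The labels name the sample IECs, but the mucosa was scraped as a whole, so other cells of the mucosa added RNA, and in such bulk samples fewer cells of a type and less RNA per cell cannot be told apart.

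Cyp2c enzymes insert oxygen into the double bonds of arachidonic acid and related fatty acids, giving epoxyeicosatrienoic acids (EETs), lipid mediators of vascular tone and inflammation, and they also oxidize drugs. They depend on electrons from P450 oxidoreductase (Por) and cytochrome b5, and soluble epoxide hydrolase (Ephx2) turns EETs into less active diols. Liver members of the subfamily are textbook targets of the nuclear receptors CAR (Nr1i3), PXR (Nr1i2) and HNF4α, while some mouse members are best known from the gut. In the mouse the subfamily lies almost whole in 1 cluster on chromosome 19.

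Between 14749669 and 21557468 reads were counted on genes per mouse. Levels are given as CPM (counts normalized to library sizes that were scaled by TMM factors) within a gene and as FPKM (counts per kilobase of gene and scaled library) between genes. Ncor1 had 134.7 ± 31.3 CPM (SD, n = 7) in WT and 50.6 ± 10.97 CPM (SD, n = 7) in IKO mice, and the 2 ranges did not overlap. On the log2 scale it fell by 1.41 (standard error 0.18, adjusted p = 0.00051, edgeR's quasi-likelihood test). 3 libraries stood apart. The mitochondrial share of the counts was 50.3% in IKO 4 and 23.9% in WT 3, against 10.3% or less in the other 12, and WT 4 was rich in smooth muscle genes, with a summed 10855 CPM for 6 markers. Member log2 fold changes are also given without IKO 4.

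The 5 members of the cluster occupy places 1, 2, 3, 4 and 8 among its 14 protein-coding genes (GRCm38, in the direction of the chromosome). Cyp2c55 (chr19:39007019-39042693) comes first, followed by Cyp2c65 (chr19:39061015-39093944), Cyp2c66 (chr19:39113898-39187072) and Cyp2c29 (chr19:39269405-39330713), all on the plus strand. Cyp2c68 (chr19:39688834-39741054) is on the minus strand, and Cyp2c23 (chr19:44005022-44029208, minus strand) lies outside the cluster. The coding sequences of Cyp2c65 and Cyp2c66 are 96.3% identical over 1470 bases each. Cyp2c68 is 98.1% identical to Cyp2c40, 97.1% to Cyp2c67 and 96.5% to Cyp2c69. Cyp2c55 is at most 78.2% identical to any other gene of the subfamily, Cyp2c23 at most 71.7%, and Cyp2c29 is closest to Cyp2c39 at 89.5%.

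The start regions of 5 members were available from RefSeq (GRCm38.p6), and the 250 bases upstream of each start are shown because they set the similar pair Cyp2c65 and Cyp2c66 against the others. They cover chr19:39060756-39061005 for Cyp2c65, chr19:39113648-39113897 for Cyp2c66, chr19:39286835-39287084 for Cyp2c29, chr19:39741102-39741351 on the minus strand for Cyp2c68 and chr19:39006769-39007018 for Cyp2c55. The RefSeq start of Cyp2c29 lies inside the gene span given by the count table. Capitals mark the letters CAAAGTC, the core of the element bound by HNF4-type receptors.
Cyp2c65: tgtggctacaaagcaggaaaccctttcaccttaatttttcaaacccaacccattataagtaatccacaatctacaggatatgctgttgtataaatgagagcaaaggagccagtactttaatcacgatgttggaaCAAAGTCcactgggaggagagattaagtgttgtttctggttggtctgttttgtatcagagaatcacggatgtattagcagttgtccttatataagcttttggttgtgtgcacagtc
Cyp2c66: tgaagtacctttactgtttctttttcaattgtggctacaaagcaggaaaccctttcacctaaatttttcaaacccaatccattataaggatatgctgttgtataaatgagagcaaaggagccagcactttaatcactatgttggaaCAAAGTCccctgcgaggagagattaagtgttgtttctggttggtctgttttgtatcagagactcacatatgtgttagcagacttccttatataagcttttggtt
Cyp2c29: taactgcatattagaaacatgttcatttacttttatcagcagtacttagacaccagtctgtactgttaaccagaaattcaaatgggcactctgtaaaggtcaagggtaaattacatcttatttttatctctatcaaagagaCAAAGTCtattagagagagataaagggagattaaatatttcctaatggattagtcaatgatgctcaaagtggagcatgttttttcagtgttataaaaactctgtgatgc
Cyp2c68: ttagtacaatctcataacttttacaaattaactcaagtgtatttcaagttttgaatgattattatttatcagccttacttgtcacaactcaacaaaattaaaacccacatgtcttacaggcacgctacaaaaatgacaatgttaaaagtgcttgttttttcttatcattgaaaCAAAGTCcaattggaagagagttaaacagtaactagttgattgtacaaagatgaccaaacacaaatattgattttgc
Cyp2c55: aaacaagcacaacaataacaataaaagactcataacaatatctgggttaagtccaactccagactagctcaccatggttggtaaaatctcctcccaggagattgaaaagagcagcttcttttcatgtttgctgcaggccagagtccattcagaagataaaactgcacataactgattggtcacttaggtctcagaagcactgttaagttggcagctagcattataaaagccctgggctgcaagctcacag

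Cyp2c65 and Cyp2c66 were 94.1% identical over the 221 bases of these windows that aligned, while the other pairs of members reached between 69.2% and 77.6% over their aligned parts. CAAAGTC, searched on both strands, was found once in each of Cyp2c65, Cyp2c66, Cyp2c29 and Cyp2c68, on the strand of the gene at positions -116, -104, -109 and -77 counted from the start, and not in the window of Cyp2c55. The longer form CAAAGTCCA was in Cyp2c65 and Cyp2c68. Cyp2c66 continued with CAAAGTCCC and Cyp2c29 with CAAAGTCTA. Of 32851 windows of this length from all genes, 3.84% held CAAAGTC and 0.384% held CAAAGTCCA, which contains the shorter form. CAAAGTC was in 10 of the 13 Cyp2c genes with a window, including genes without reads in these samples. AGGTCA, the half-site of many nuclear receptors, was in the window of 1 member, Cyp2c29, and in 14.02% of all windows. These matches describe the letters and not binding.

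Of the 6 members, 5 passed the filter on low counts, and Cyp2c29 did not. Cyp2c55 and Cyp2c66, at trace levels in WT mice, stood more than 20-fold higher in IKO mice, Cyp2c65 was higher to a smaller degree, and Cyp2c68 and Cyp2c23 had nearly equal means. Cyp2c29 had reads in 1 WT mouse and in each IKO mouse.

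Cyp2c55, an enzyme known for oxidizing arachidonic acid to hydroxy and epoxy products, ranged from 2.15 CPM over a median of 3.35 to 6.37 CPM in WT mice. In IKO mice it ranged from 8.31 CPM over a median of 70.1 to 228.3 CPM. The groups did not overlap even with IKO 4, which held the lowest IKO value, and among all genes tested 1.83% had each IKO mouse above each WT mouse. The log2 fold change was 4.45 (standard error 0.53, 95% confidence interval from 3.33 to 5.57), a 21.9-fold difference and the 5th highest of all genes tested. Without IKO 4 the log2 fold change was 4.66. IKO 1 stood high, at 228.3 CPM, and the other 5 IKO mice lay between 54.0 and 81.3 CPM.

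Cyp2c66 ranged from 0 over 1.55 to 4.396 CPM in WT mice and from 2.73 over 36.5 to 72.2 CPM in IKO mice. WT 3 had no read of this gene, where a count of 0 allows up to 3 counts, and 6 of 7 IKO mice lay above the highest WT mouse, IKO 4 being the exception. The log2 fold change was 4.38 (standard error 0.73, interval from 2.83 to 5.92), the 6th highest in the table. It was 4.58 without IKO 4. Cyp2c66 and its neighbor Cyp2c65 are enzymes whose expression is best known from the intestinal tract.

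Cyp2c65, among the highest members per length in WT mice, ranged from 19.4 over 62.9 to 90.8 CPM there. In IKO mice the range was from 18.8 over 157.4 to 248.6 CPM. The groups overlapped, since IKO 4 lay under each WT mouse and IKO 2, at 88.5 CPM, under the highest one, and 5 of 7 IKO mice were above all WT mice. The log2 fold change was 1.42 (standard error 0.46, interval from 0.44 to 2.40), or 1.62 without IKO 4. This is a 2.67-fold difference, beside 20.8-fold for Cyp2c66.

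Cyp2c29, a major EET-forming enzyme of the liver, had 2 counts in all WT mice together, both in WT 5, and 276 in the IKO mice. The IKO mice held 66, 18, 32, 2, 22, 41 and 95 counts from IKO 1 to IKO 7, or between 0.22 and 5.72 CPM. Every IKO mouse was above each WT mouse on the CPM scale, although IKO 4 rested on 2 counts. Per unit of effective depth the pooled IKO count was 173-fold the WT count, with an exact 95% counting interval from 47.4 to 1436 that covers counting error only and not the spread between mice. Of 7 liver markers, 6 did not pass the filter, Alb had at most 2 counts in a mouse, and the summed level of the list was between 0.94 and 3.54 CPM in WT and between 1.77 and 5.73 CPM in IKO mice. Cyp2c29 in IKO 7, at 5.72 CPM, was thus as high as the largest sum of the liver list, which IKO 1 held.

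Cyp2c68 ranged from 23.8 over 74.2 to 81.2 CPM in WT mice and from 15.4 over 64.6 to 106.1 CPM in IKO mice. The IKO range extended past the WT range on both sides, with 2 of 7 IKO mice above the highest WT mouse and IKO 4 under the lowest. The log2 fold change was 0.10 (standard error 0.35, interval from -0.66 to 0.85), and 0.27 without IKO 4. Cyp2c23, an arachidonate epoxygenase known from the kidney, ranged from 1.20 over 2.61 to 5.48 CPM in WT and from 1.61 over 2.79 to 3.83 CPM in IKO mice. Its log2 fold change was -0.12 (standard error 0.35, interval from -0.86 to 0.63), and -0.14 without IKO 4. For both genes the intervals leave room for a rise to 1.80-fold (Cyp2c68) and 1.55-fold (Cyp2c23) and for a fall to 0.63-fold and 0.55-fold.

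**Figure D1:**
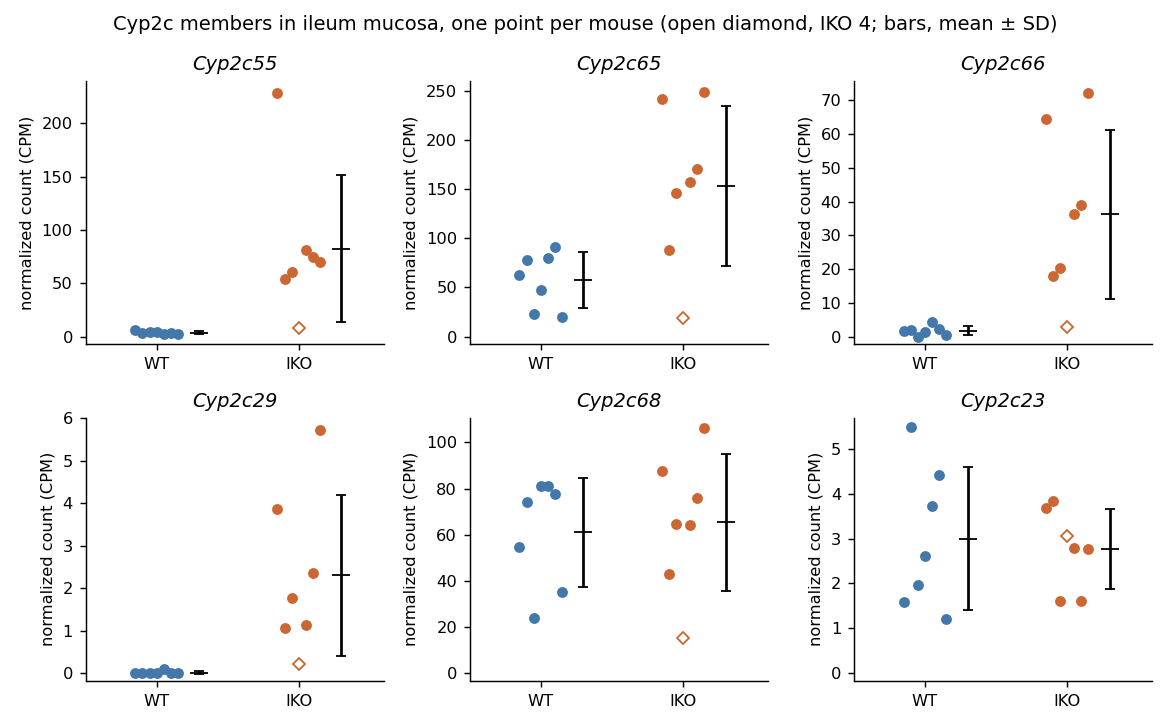
Normalized count (CPM, y axis, from 0) of each member in the 7 WT and 7 IKO mice, 1 point per mouse, with the mean ± SD as a bar and IKO 4 as an open diamond. Cyp2c55 has no overlap between the genotypes, and IKO 4 lies within the WT range for Cyp2c66 and under it for Cyp2c65, where IKO 2 lies within it. For Cyp2c68 the IKO range spans the WT range, and for Cyp2c23 the WT range spans the IKO range.

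The rest of the subfamily was nearly silent. Of 12 further Cyp2c genes and pseudogenes, 7 had no read in any mouse (Cyp2c37, Cyp2c38, Cyp2c39, Cyp2c50, Cyp2c54, Cyp2c53-ps and Cyp2c73-ps). Another 3 had at most 3 counts in a mouse (Cyp2c40, Cyp2c69 and Cyp2c70). Cyp2c67 had between 2 and 16 counts per mouse, 63 in WT and 68 in IKO mice in all. Cyp2c52-ps had 23 counts in WT, 18 of them in WT 2, and 8 in IKO mice. None of the 12 passed the filter, so that 0 were tested in the edgeR fit. In order along the chromosome, the 4 members that stood higher in IKO mice were thus the first 4 coding genes of the cluster. Cyp2c38 and Cyp2c39 were at 0 in all mice, Cyp2c67 held a few counts, and Cyp2c68 lay within the WT range in 4 of 7 IKO mice. Tested genes next to the cluster were chosen by position. Tbc1d12 before it was lower in IKO mice (log2 fold change -0.92, standard error 0.27, edgeR adjusted p = 0.047) and Pdlim1 after it was higher (0.58, standard error 0.17, edgeR adjusted p = 0.0499). Hells, between Tbc1d12 and the cluster, did not pass the same edgeR test (-0.66, adjusted p = 0.234).

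Related genes can share reads, and how reads that match several genes were treated is not given in the sources used here. Of all 150-base windows of the longest transcript, the length of 1 read of a pair, 4.55% in Cyp2c65 and 4.99% in Cyp2c66 were identical to a window of the other gene. In Cyp2c68 8.83% were identical to Cyp2c40. No such window was found in Cyp2c55, Cyp2c29 or Cyp2c23. At 75 bases the shares were 11.4%, 11.7% and 28.5%, the last with Cyp2c40, Cyp2c67 and Cyp2c69. The levels of Cyp2c65, Cyp2c66 and Cyp2c68 are therefore less certain than those of the other 3 members. Cyp2c29 overlaps Cyp2c53-ps on the same strand and Cyp2c55 overlaps the miRNA gene Gm23800 on the opposite strand, both of which had 0 counts.

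The difference between the similar genes Cyp2c65 and Cyp2c66 was also seen within each mouse. As a percent of the Cyp2c65 FPKM, Cyp2c66 was between 0 and 5.44 in WT mice (median 2.54) and between 13.8 and 28.8 in IKO mice (median 22.7). IKO 4, low in both genes, was at 14.4% and so lay with the other IKO mice. Cyp2c55 was between 2.59% and 17.2% of Cyp2c65 in WT and between 27.3% and 91.3% in IKO mice. Cyp2c65 in turn was between 49.1% and 104.3% of Cyp2c68 in WT and between 109.1% and 246.4% in IKO mice. For none of these 3 ratios did the genotypes overlap, IKO 4 included. The ratios use the values that chose the members and were picked after these were seen, so they were not tested.

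**Figure D2:**
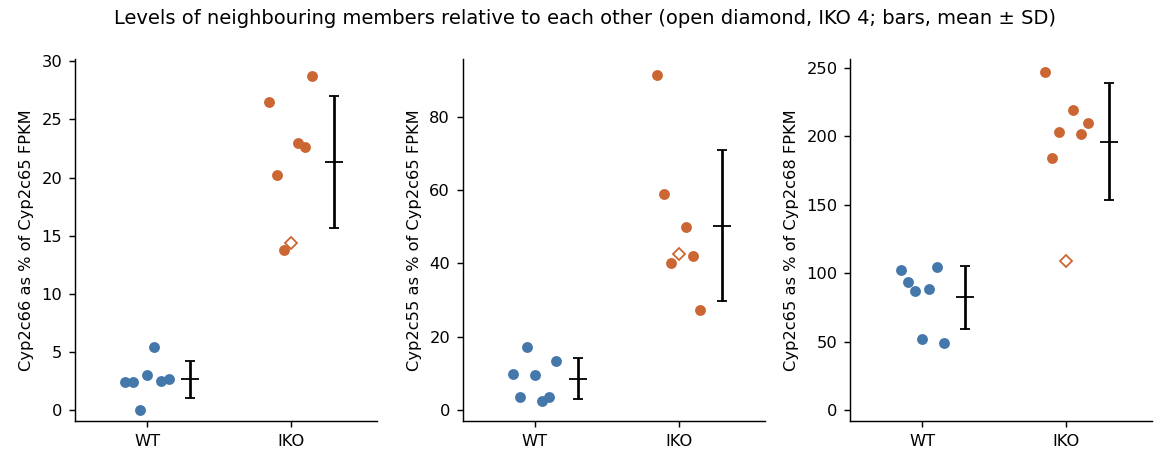
FPKM of 1 member as a percent of another (y axes, from 0) in each mouse, for Cyp2c66 over Cyp2c65, Cyp2c55 over Cyp2c65 and Cyp2c65 over Cyp2c68, with the mean ± SD as a bar and IKO 4 as an open diamond. In all 3 panels every IKO mouse lies above every WT mouse, and IKO 4 at 14.4% in the first panel lies beside the other IKO mice.

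Per length, the make-up of the Cyp2c message differed between the genotypes. The FPKM summed over the members had a median of 73.7 in WT mice (from 27.8 to 96.6) and 182.9 in IKO mice (from 26.1 to 323.2), with IKO 4 the lowest of all 14 mice. Cyp2c68 made up a median of 48.7% of the sum in WT and 23.0% in IKO mice. Cyp2c55 went from a median of 3.12% to 19.6% and Cyp2c66 from 1.12% to 10.1%, while Cyp2c65 was at 44.3% and 45.3%. The ranges of the shares did not overlap for Cyp2c68 (46.0% to 62.6% in WT, 15.6% to 34.7% in IKO), Cyp2c55 (1.15% to 7.20% and 13.2% to 35.0%) or Cyp2c66 (0% to 2.41% and 5.45% to 13.9%). Cyp2c29 never exceeded 0.70% of the sum. The shares of a mouse add up to the whole, so a higher share of some members lowers that of the others. The FPKM of Cyp2c68 itself was 34.8 ± 13.6 in WT and 37.9 ± 17.2 in IKO mice (SD, n = 7 each). Like the ratios, the shares use the values that chose the members, so they were not tested.

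**Figure D3:**
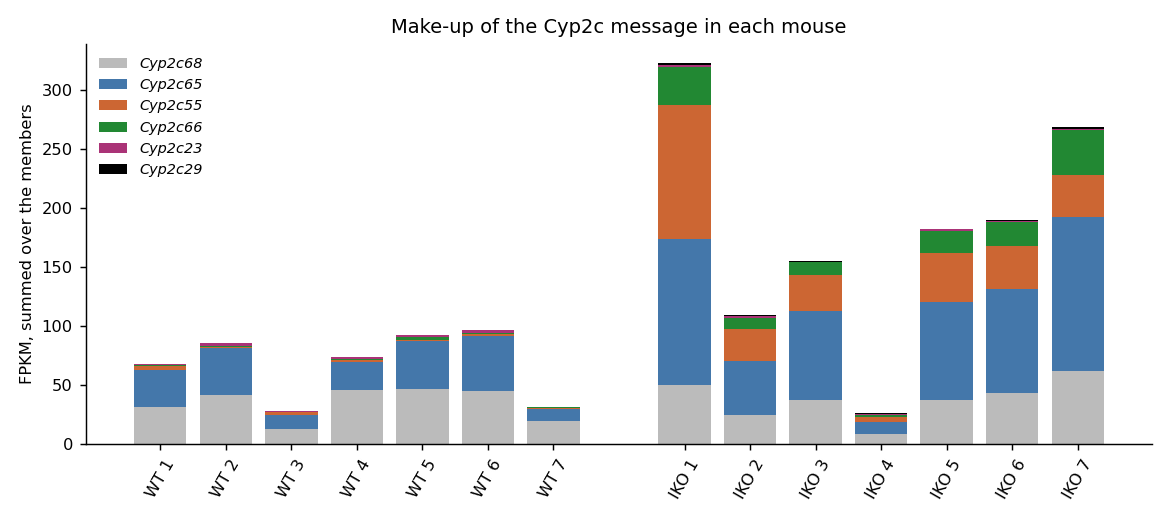
FPKM of the 6 members stacked for each of the 7 WT and 7 IKO mice (y axis, summed FPKM). WT bars consist almost wholly of Cyp2c68 and Cyp2c65, IKO bars hold Cyp2c55 and Cyp2c66 in addition, and IKO 4 is the shortest bar, with a sum of 26.1.

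By mean log2 (FPKM + 0.1), the order in WT mice was Cyp2c68, Cyp2c65, Cyp2c55, Cyp2c23, Cyp2c66 and Cyp2c29, and in IKO mice Cyp2c65, Cyp2c68, Cyp2c55, Cyp2c66, Cyp2c23 and Cyp2c29. Neighbors in the order were compared within mice by an exact two-sided sign-flip permutation test, whose smallest possible p with 7 mice is 0.0156, with adjustment over the 10 neighbor pairs of both genotypes. None of the 10 passed, and the smallest adjusted p was 0.0625. A single pair at the smallest possible p could not pass this adjustment, so the lack of calls does not show equal levels. Cyp2c65 was above Cyp2c68 in 7 of 7 IKO mice by 0.93 ± 0.38 on the log2 scale (SD, n = 7, exact p = 0.0156, adjusted p = 0.0625). In WT mice Cyp2c68 was above Cyp2c65 in 5 of 7 by 0.33 ± 0.45 (SD, n = 7, exact p = 0.0781). The step from Cyp2c65 down to Cyp2c55 in WT mice, 3.78 ± 1.06, was present in 7 of 7. Cyp2c68 and Cyp2c55 in IKO mice (0.15 ± 0.73, 4 of 7) and Cyp2c55 and Cyp2c23 in WT mice (0.50 ± 1.05, 4 of 7) differed by less than their spread between mice. Without IKO 4 the first of these differences came to -0.011.

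Whether members rose and fell together from mouse to mouse was tested within each genotype, a measure that does not use the contrast. Of 15 pairs per genotype, 8 in IKO and 2 in WT mice had an adjusted p under 0.05 for Pearson's r of log2 CPM (exact two-sided permutation tests with adjustment over all 30 pairs). In IKO mice Cyp2c65 and Cyp2c66 had r = 0.98 (exact p = 0.000198, the smallest that 5040 pairings can give, adjusted p = 0.00298) and Spearman's rho = 1.0 (exact p = 0.000397, adjusted p = 0.00595). Cyp2c65 and Cyp2c68 had r = 0.99 (adjusted p = 0.00298 by the same exact test) and rho = 0.96 (adjusted p = 0.0139). Thus Cyp2c68, with a mean near the WT mean, varied among IKO mice in step with members that stood higher there. Cyp2c29 and Cyp2c68 had r = 0.96 and rho = 1.0, with the same adjusted p as the first pair in each case.

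IKO 4 had the lowest level of all members but Cyp2c23 among IKO mice, and part of these relations rested on it. Without IKO 4 and WT 4, 4 pairs in IKO and 1 in WT mice passed. The 4 pairs were Cyp2c65 and Cyp2c66 (r = 0.93, n = 6, exact adjusted p = 0.0208), Cyp2c65 and Cyp2c68 (r = 0.98, n = 6, exact adjusted p = 0.0278), Cyp2c66 and Cyp2c68 (r = 0.91, n = 6, exact adjusted p = 0.0417) and Cyp2c29 and Cyp2c68 (r = 0.92, n = 6, exact adjusted p = 0.0417). Cyp2c55 was in none of them. Its r with Cyp2c65 in IKO mice was 0.93 with IKO 4 (rho = 0.75) and 0.63 without it, and 0.67 without the 2 mice farthest from the median of the first gene. For Cyp2c65 with Cyp2c66 and with Cyp2c68, r without the 2 farthest IKO mice was 0.94 and 0.95.

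In WT mice, Cyp2c65 and Cyp2c66 (r = 0.83, rho = 0.93, exact adjusted p = 0.0488 for r) and Cyp2c66 and Cyp2c68 (r = 0.94, rho = 0.79, exact adjusted p = 0.0204 for r) passed. Without the 2 mice farthest from the median of the first gene, r was 0.65 and 0.89. Cyp2c55 had r between -0.40 and -0.08 with Cyp2c65, Cyp2c66, Cyp2c68 and Cyp2c23 in WT mice. WT pairs with Cyp2c29 rest on 2 counts in 1 mouse and are not read. Cyp2c23 had r between -0.23 and 0.01 with the other members in IKO mice and 0.79 with Cyp2c65 in WT mice (exact adjusted p = 0.0897). Whether r differed between the genotypes was not tested. The levels of one library share its depth, its normalization and its mixture of cells, and Cyp2c65 and Cyp2c66 also share sequence over a read length. The part of each of these in the relations was not tested.

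**Figure D4:**
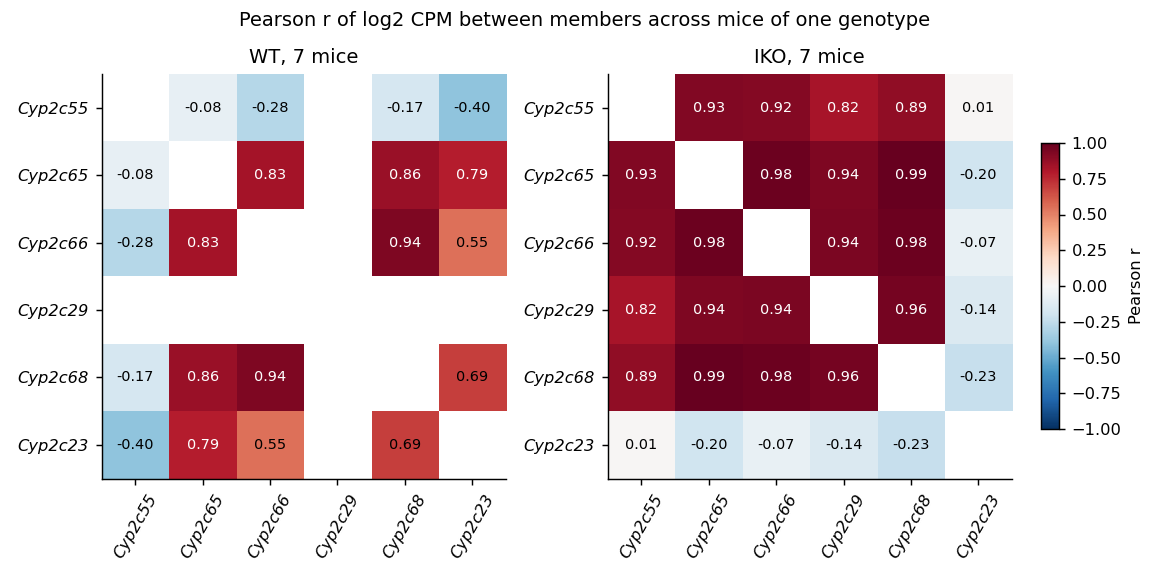
Pearson's r of log2 CPM (color, from -1 to 1) for each pair of members across the 7 WT mice and across the 7 IKO mice, with WT pairs of Cyp2c29 left blank because only 1 WT mouse had reads. The 10 IKO pairs without Cyp2c23 lie between 0.82 and 0.99, and those with Cyp2c23 between -0.23 and 0.01.

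The genes most like each member were sought among 11264 tested genes by Pearson's r of log2 CPM, centred within each genotype, over 14 mice. As the best of many, these r are descriptions. Cyp2c68 was most like Cyp4b1, another P450 enzyme (r = 0.98), and Lpcat3, which puts polyunsaturated fatty acids into phospholipids (r = 0.97), followed by Aqp11 (r = 0.96). Cyp2c65 was most like Entpd5, Reep3 and Slc41a2 (each r = 0.97). Cyp2c66 was most like Retsat, the retinol saturase (r = 0.96), Vkorc1l1 (r = 0.95) and Tmem9b (r = 0.95). Cyp2c23 was most like Acy3 (r = 0.96), the carnitine acetyltransferase Crat and the peroxisomal import receptor Pex5 (each r = 0.94). For these 4 members r was at least 0.916 without IKO 4. Those of Cyp2c55 with Golt1b, Mpdu1 and Rcn2 fell from 0.93, 0.88 and 0.88 to 0.80, 0.53 and 0.68, and those of Cyp2c29 with Ttc39b, Atp8a1 and Pdia3 from 0.89, 0.88 and 0.88 to 0.75, 0.69 and 0.68. Between the genotypes, where 4.38% of all genes tested were called higher and 4.28% lower, 1 of these 18 genes passed the edgeR test, Acy3, higher by 1.37 on the log2 scale (standard error 0.24, adjusted p = 0.0046).

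The remaining genes of the pathway were taken from lists written from general knowledge, but with earlier results of these data known. The share called within a list is therefore a description. At an adjusted p under 0.05 in edgeR, 4.38% of the 13846 genes tested in the whole table were higher and 4.28% lower, or 607 and 593 genes, a split that came to 706 and 317 with limma on log2 (FPKM + 0.1). Among the electron donors, 1 of 4 was higher and 0 lower, and the median log2 fold change was 0.93, beside -0.09 over all genes tested. Cyb5a, a cytochrome b5, rose from 177.9 ± 67.4 to 399.1 ± 106.6 CPM (SD, n = 7 each, log2 fold change 1.17, standard error 0.24, edgeR adjusted p = 0.0116). The ranges overlapped, with the lowest IKO mouse at 271.8 CPM and the highest WT mouse at 313.0 CPM. Por, the oxidoreductase on which these enzymes depend, had 204.4 ± 99.5 CPM in WT and 496.0 ± 212.7 CPM in IKO mice (log2 fold change 1.28, standard error 0.41) and did not pass (edgeR adjusted p = 0.0609). IKO 4, at 70.8 CPM, lay under every WT mouse for Por, and without it the log2 fold change was 1.48 (edgeR adjusted p = 0.0132). Cyb5b (log2 fold change 0.69) and Cyb5r3 (0.13) did not pass the edgeR test either (adjusted p = 0.0589 and 0.817).

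Of the enzymes that use up epoxides, 2 of 4 were tested and 0 passed. Ephx2, the soluble epoxide hydrolase, had 323.3 ± 174.5 CPM in WT and 261.6 ± 51.5 CPM in IKO mice (SD, n = 7 each, log2 fold change -0.31, standard error 0.31, edgeR adjusted p = 0.517). Ephx1, the microsomal enzyme, differed by -0.57 on the log2 scale (standard error 0.56, edgeR adjusted p = 0.509), which came to 0.041 without WT 4, where smooth muscle genes were high. The other epoxygenase subfamily present, Cyp2j, had 2 of 8 genes tested and 0 called. Cyp2j6 had 263.4 ± 117.9 CPM in WT and 243.8 ± 113.8 CPM in IKO mice (log2 fold change -0.11, standard error 0.37).

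Of 8 tested genes that release arachidonic acid, 0 passed, and their median log2 fold change was 0.23. In the cyclooxygenase branch, 1 of 9 tested genes was lower, beside 4.28% in the whole table, and 0 were higher. This was Hpgds, the prostaglandin D synthase of hematopoietic cells, at 4.09 ± 1.00 CPM in WT and 1.65 ± 0.84 CPM in IKO mice (SD, n = 7 each, log2 fold change -1.30, standard error 0.32, edgeR adjusted p = 0.0225). It lost the call without IKO 5 (adjusted p = 0.0561 in edgeR). The 4 leukocyte markers, whose part in this was not tested, had a summed level from 50.8 over 108.8 to 175.0 CPM in WT and from 35.2 over 51.5 to 97.9 CPM in IKO mice, and 0 of the 4 passed. In the lipoxygenase branch 0 of 4 tested genes passed, and their median log2 fold change was -0.60. The median was -0.21 in the cyclooxygenase branch and -0.09 over all genes tested.

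Of 16 genes listed as regulators of Cyp2c genes, all tested, 3 were higher and 1 lower, beside 4.38% and 4.28% in the whole table. Their median log2 fold change was 0.28, beside -0.09 over all genes tested. As this list too was written with earlier results known, its share of calls is no evidence of enrichment. Nr1d1, the clock repressor REV-ERBα, rose from 69.5 ± 28.7 to 219.8 ± 50.7 CPM (SD, n = 7 each, log2 fold change 1.66, standard error 0.27, edgeR adjusted p = 0.0034). Vdr, the vitamin D receptor, rose from 274.1 ± 56.8 to 526.6 ± 65.2 CPM (log2 fold change 0.94, standard error 0.17, edgeR adjusted p = 0.0055). Ppara, the fatty acid receptor, rose from 20.0 ± 10.3 to 58.7 ± 31.3 CPM (log2 fold change 1.55, standard error 0.40, edgeR adjusted p = 0.0285). Its ranges overlapped, with the lowest IKO mouse at 27.9 CPM and the highest WT mouse at 30.4 CPM. Rora, a retinoid-related orphan receptor at 2.82 ± 1.90 and 0.64 ± 0.46 CPM, fell by 2.11 on the log2 scale (standard error 0.57, edgeR adjusted p = 0.0354).

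The calls of Ppara and Rora were near the threshold. Ppara had an adjusted p of 0.0525 without IKO 3, 0.0521 without IKO 4 and 0.0607 without WT 7, and Rora lost its call in 12 of 20 alternative fits, among them those without IKO 1, 2, 3, 4 or 5 or WT 3, 4 or 7 (adjusted p from 0.0513 to 0.0815 in edgeR). The receptors best known for inducing liver Cyp2c genes did not pass the edgeR test on all mice, but Nr1i2 and Hnf4a passed in some alternatives. Nr1i2 (PXR) had 132.8 ± 59.6 CPM in WT and 219.8 ± 44.5 CPM in IKO mice (log2 fold change 0.73, standard error 0.24, edgeR adjusted p = 0.0675). All 7 IKO mice lay above its WT median. It passed without WT 2 (edgeR adjusted p = 0.0096) and with DESeq2 (adjusted p = 0.0217). It also passed with limma on log2 (FPKM + 0.1) (adjusted p = 0.0390) and on log2 (FPKM + 1) (adjusted p = 0.0384). Nr1i3 (CAR) was low, at 4.98 ± 4.26 and 3.20 ± 1.45 CPM (log2 fold change -0.63, standard error 0.52, edgeR adjusted p = 0.422). Hnf4a, with 782.7 ± 145.4 and 1086 ± 213 CPM, was the most abundant of the 16 in counts (log2 fold change 0.47, edgeR adjusted p = 0.107). All 7 IKO mice lay above its WT median, and it was called higher with DESeq2.

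**Figure D5:**
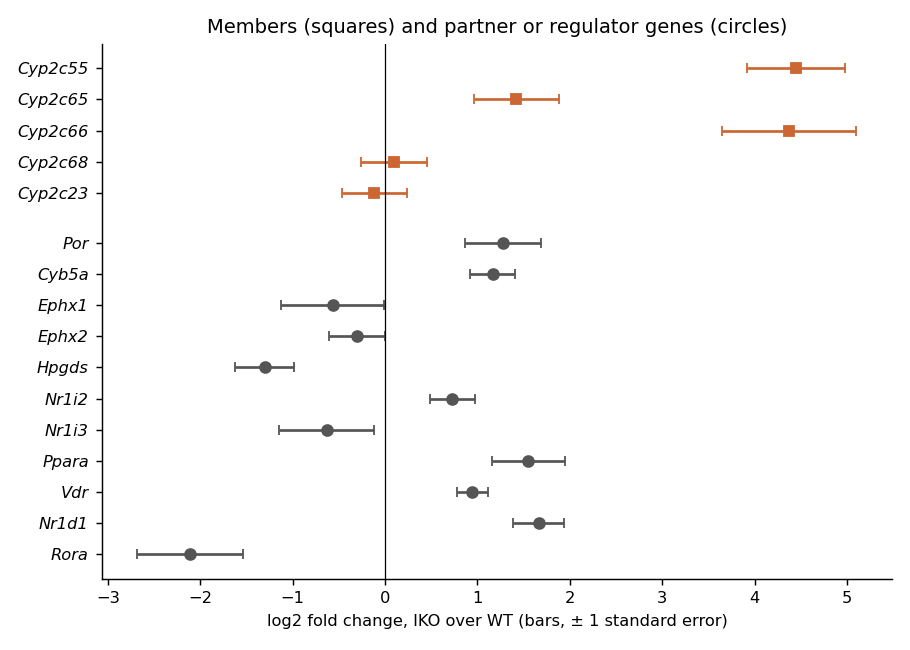
Log2 fold change of IKO over WT mice with ± 1 standard error (x axis) for the 5 members tested (squares, shown as a description) and for genes of the donor, hydrolase, prostaglandin and regulator lists (circles). Cyp2c55 at 4.45 and Cyp2c66 at 4.38 stand to the right of all others shown, and Cyp2c68 and Cyp2c23 lie at 0.10 and -0.12.

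Markers of the mucosa and of neighboring organs were read in the same samples. The 6 enterocyte markers had a summed level between 12802 and 46678 CPM in WT and between 32770 and 47600 CPM in IKO mice, and 0 of them passed the edgeR test. The members were thus measured in samples in which the labelled cell type was present in each mouse. The summed level of 7 distal ileum markers was between 1843 and 10118 CPM in WT and between 1729 and 7210 CPM in IKO mice, with 0 past the test. Their directions differed. Fgf15 had a log2 fold change of -1.75 (edgeR adjusted p = 0.0616), with 7 of 7 IKO mice under the WT median. Amn was at -0.51 and Fabp6 at -0.46, while Slc10a2 was at 1.08, Slc51a at 0.56, Slc51b at 0.50 and Cubn at 0.36. Of 5 tested markers of the proximal small intestine, 1 was higher, Fabp1, higher by 2.17 on the log2 scale (standard error 0.55, edgeR adjusted p = 0.0277), beside 4.38% in the whole table. Of the others, Apoa4 had a log2 fold change of 0.77, Onecut2 0.21, Gata4 near 0 (51.9 CPM in both genotypes) and Lct -1.01, with 6 of 7 IKO mice under the WT median. Cybrd1, which did not pass the filter, was at 1.12 ± 0.76 CPM in WT and 0.29 ± 0.16 CPM in IKO mice (SD, n = 7 each). The colon markers Hoxb13 and Hoxd13 were at 0 in all mice, and the summed colon list, most of it B4galnt2 in the mice where it was highest, was between 36.1 and 302.5 CPM in WT and between 53.1 and 496.4 CPM in IKO mice. In the lists for other cells of the mucosa and gut wall, 0 genes passed the edgeR test, and their directions differed. Log2 fold changes were above 0 in 5 of 6 goblet cell markers (median 0.15) and 2 of 4 Paneth cell markers (median 0.07). They were above 0 in 1 of 5 B and plasma cell markers (median -0.56) and 0 of 4 leukocyte markers (median -0.34). For 5 crypt and dividing cell markers the log2 fold change was below 0 in 5 of 5 (median -1.03), and their sum ranged from 102.2 over 261.9 to 335.2 CPM in WT and from 78.4 over 136.3 to 207.3 CPM in IKO mice. For 5 stroma and endothelium markers it was also below 0 in 5 of 5 (median -1.75), with a sum from 7.85 over 19.3 to 201.0 CPM in WT, highest in WT 4, and from 6.77 over 13.4 to 23.6 CPM in IKO mice. The 6 smooth muscle markers were below 0 in 6 of 6 (median -3.10), with a sum from 5.08 over 22.6 to 10855 CPM in WT, highest in WT 4, and from 4.53 over 10.5 to 795.8 CPM in IKO mice. WT 4 dominated these WT means, with 2953 CPM of Des beside a WT mean of 429 CPM. Des, Myh11, Actg2 and Acta2 each had 3 of 7 IKO mice above the WT median, Cnn1 4 of 7 and Tagln 5 of 7. The part of region or cell mixture in the members' levels was not tested.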

How the data were processed

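Libraries from ileum mucosa of 7 WT and 7 IKO mice on the HFD were analyzed. The deposited counts are whole reads per gene; the submitters' processing notes name HISAT2 2.0.5, featureCounts 1.5.0-p3, DESeq2 1.16.1 and mm10. The deposited FPKM, scaled by the authors with size factors, served for comparisons between genes. Strandedness and the treatment of reads with several matches are not given in the sources used here. Genes were filtered with filterByExpr, scaled by TMM and compared with edgeR 4.0.16 (quasi-likelihood test, genotype as the only term) in R 4.3.3, with Benjamini-Hochberg adjustment over 13846 genes and calls at 0.05. The script was tested on simulated counts. Log2 CPM add a prior count of 2. Intervals are at 95%. Replicates are separate mice. Sequence comparisons used GENCODE M21 transcripts, whose positions of all 6 members equal those in the table, and RefSeq start regions.

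The members and lists were chosen with earlier results of these data known, and the motifs with the promoters in view. Named genes are the members, other Cyp2c genes, per list up to 4 called genes with the largest change, Ephx1, Ephx2, Por, Nr1i2, Nr1i3, Ppara and Ncor1, and the 3 genes most like each member with a mean log2 CPM of at least 1. Hnf4a, Cyb5b, Cyb5r3, Cyp2j6, Hells, Tbc1d12 and Pdlim1 were added with their values known. The alternatives were RLE, DESeq2 1.42.0, other filters, limma 3.58.1 on log2 FPKM (pseudocounts of 1 and 0.1, genes above 0.5 in at least 7 samples), the mouse number as a block and mice left out. One result is not reported here.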

Additional observations from a re-analysis of the deposited data

Results flagged for a closer look

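In 64 groups of 7 mice examined (levels of members and named genes, marker sums and mitochondrial share), 10 held a mouse far from the others by Dixon's gap criterion. Chance gives about 1 in 20 for a single group. The groups share libraries and are not independent, so the 10 cannot be set against this rate. IKO 4 was the mouse apart in 6 of the 10. On the log2 CPM scale it stood at 4.24 for Cyp2c65 (other IKO mice 6.47 to 7.96), 1.51 for Cyp2c66 (4.18 to 6.18) and 6.15 for Por (8.70 to 9.42). On the log2 scale of summed CPM it stood at 11.5 for goblet cell markers (12.8 to 13.7) and 3.85 for pancreas markers (0.08 to 1.38), and mitochondrial genes took 50.3% of its counts (3.49% to 6.10% in the others).

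WT 5 stood apart for Cyp2c29 at -2.23 log2 CPM, as the only WT mouse with reads of it (2 counts). With the other 6 WT mice tied at 0 counts, any read in 1 mouse meets the criterion. WT 3 had a mitochondrial share of 23.9% (others 3.83% to 10.3%), WT 4 a smooth muscle marker sum of 13.4 on the log2 scale (2.60 to 5.99), and IKO 7 an enterocyte marker sum of 15.5 (15.0 to 15.2).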

How the results depend on the processing

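The log2 fold changes of the 5 tested members moved by less than the spread between mice under all alternatives run: 3.51 to 4.75 for Cyp2c55, 3.07 to 4.80 for Cyp2c66, 1.26 to 1.62 for Cyp2c65, -0.06 to 0.27 for Cyp2c68 and -0.27 to 0.10 for Cyp2c23, the last 2 crossing 0. Cyp2c66 did not have 10 counts in every sample and has no value under that filter. Cyp2c29, fitted only without the filter or in fits that kept it, had 6.81, between 6.56 and 8.42 with a mouse left out, and 0.73 with limma on log2 (FPKM + 1) without filter. With 2 WT counts such a value depends on the prior count or pseudocount and is no bound.

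The mouse numbers do not pair the mice (correlations of same-numbered deviations between -0.305 and 0.232). With the number as a replicate block, 362 genes passed in place of 1200, of the regulators 2 (Vdr and Nr1d1) in place of 4, and of the partner genes 2 (Cyb5a and Hpgds) as before. Ppara (adjusted p = 0.0856) and Rora (adjusted p = 0.0562, edgeR) lost their calls with the block. The whole count was 2484 with DESeq2, 508 without filter, 614 with limma on log2 (FPKM + 1) without filter, 433 with WT 3, WT 4 and IKO 4 left out together and between 515 and 1371 with 1 mouse left out (lowest without IKO 5). The cause was not tested. The split into higher and lower calls, 607 and 593, was 706 and 317 with limma on log2 (FPKM + 0.1), 708 and 328 on log2 (FPKM + 1), 454 and 160 on the latter without filter, 346 and 162 in edgeR without filter, 226 and 136 with the block and 276 and 157 with the 3 mice left out. Of the eicosanoid and P450 partner genes, 2 passed, 7 with DESeq2, 1 without filter (Cyb5a), 1 with the 3 mice left out (Por) and between 1 and 4 with 1 mouse left out. Of the regulators, 4 passed, 7 with DESeq2 (with Nr1i2, Rxra and Hnf4a in addition), 2 with the 3 mice left out, 2 with limma without filter and between 2 and 5 with 1 mouse left out. With limma after the filter 4 passed, with Nr1i2 among them and Rora not. Of the further Cyp2c genes, 5 were tested in the 2 fits without filter, where 0 passed, and 0 were tested in the other fits. Ephx1, at -0.57, turned to 0.40 with the 3 mice left out and lay between -0.90 and 0.041 with 1 mouse left out, highest without WT 4. The call of Cyb5a was lost with the 3 mice left out (edgeR adjusted p = 0.0556).

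Member pairs that passed went from 8 to 4 in IKO mice and from 2 to 1 in WT mice with WT 4 and IKO 4 left out, and to 1 in WT mice with a prior count of 0.5. In 1 alternative the FPKM of each gene was rescaled from gene length to unshared transcript positions, with all reads kept. Here 4 neighbors of the order passed (adjusted p = 0.0391, exact sign-flip test). They were Cyp2c68 above Cyp2c65 (0.41) and Cyp2c65 above Cyp2c55 (3.86) in WT mice. In IKO mice they were Cyp2c65 above Cyp2c68 (0.85) and Cyp2c66 above Cyp2c23 (3.39). The rescaling holds only if reads that match several genes had been left out, which is not known. Before it, Cyp2c65 was at 102.7% of Cyp2c68 in WT 1 and at 104.3% in WT 6, so a small constant decides the first call. These 4 calls depend on the pairs reaching the smallest possible p together. With a pseudocount of 0.01, Cyp2c66 above Cyp2c29 in WT mice was 5.21 (2.75 with 0.1). Cyp2c68 above Cyp2c55 in IKO mice came to -0.011 without IKO 4 (0.15 with it, and between -0.011 and 0.36 with a mouse left out). The depth limits Cyp2c29 and the silent Cyp2c genes, where a few counts decide a level.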
